A study of Mus musculus with 4 samples.

Results

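The genes described are the collagens, taken as every gene whose symbol is Col, a number, the letter a and a number. The RefSeq table of assembly GRCm38.p6 holds 44 such symbols, and 39 of them were matched by accession to 65 probes of the array, out of 16862 named genes usable on all 4 arrays. Col6a3, Col6a5, Col12a1, Col20a1 and Col22a1 were matched to no probe by accession and are not analysed here. Collagens are secreted or membrane-bound proteins in which chains wind into a long helix built on repeats of glycine. Fibrillar collagens such as types I and III give the dermis its tensile strength, and type IV forms the sheet of the basement membrane under the epidermis. Type VII anchors that sheet to the dermis and type XVII, a transmembrane collagen of the hemidesmosome, ties basal keratinocytes to it.

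The samples were mouse tail skin and back skin, each untreated or 48 h after a photodynamic treatment that makes a burst of reactive oxygen species. Treated skin received a methyl aminolevulinate cream (Metvix), 2.5 h of darkness and then red light of 636 nm. The light dose was 10 J/cm2 for tails and 2.5 J/cm2 for backs. For the back treatment the animals were shaved; whether the untreated back group was shaved, and the strain, sex and age of the animals, are not given in the sources used here. The design gives 3 animals per group, yet the data hold 1 one-colour Agilent array per group, with no statement on pooling. No difference below has a replicate check, none was tested, and all compare single arrays of 1 slide, so a group and its position on the slide cannot be told apart. The labels name skin throughout, while the extraction protocol names epidermis for the tail and skin for the back.

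The arrays differed in brightness. Tail control had a 75th percentile of the signal of 7261, tail treated 909, back control 1860 and back treated 1204. Levels are therefore given as log2 signal minus the 75th percentile of the same array, and a difference is a difference of 2 such levels. Higher and lower mean a difference of at least 2-fold. Where 1 of the arrays compared had a saturated spot, or one not well above background (called dim), the difference is only a bound, written "at least". The scanner's own error of a difference, which covers the spot and not the animals, had a median of 0.20 in each comparison over all genes. Of the 39 collagens, between 33 and 36 were well above background on an array. Defining markers of keratinocytes were well above background on all arrays, at 8 of 8 basal and 5 of 5 suprabasal genes, and of 12 fibroblast markers 2 or 3 per array were not. Levels of different genes are read by different probes and are not compared with each other.

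**Figure D1:**
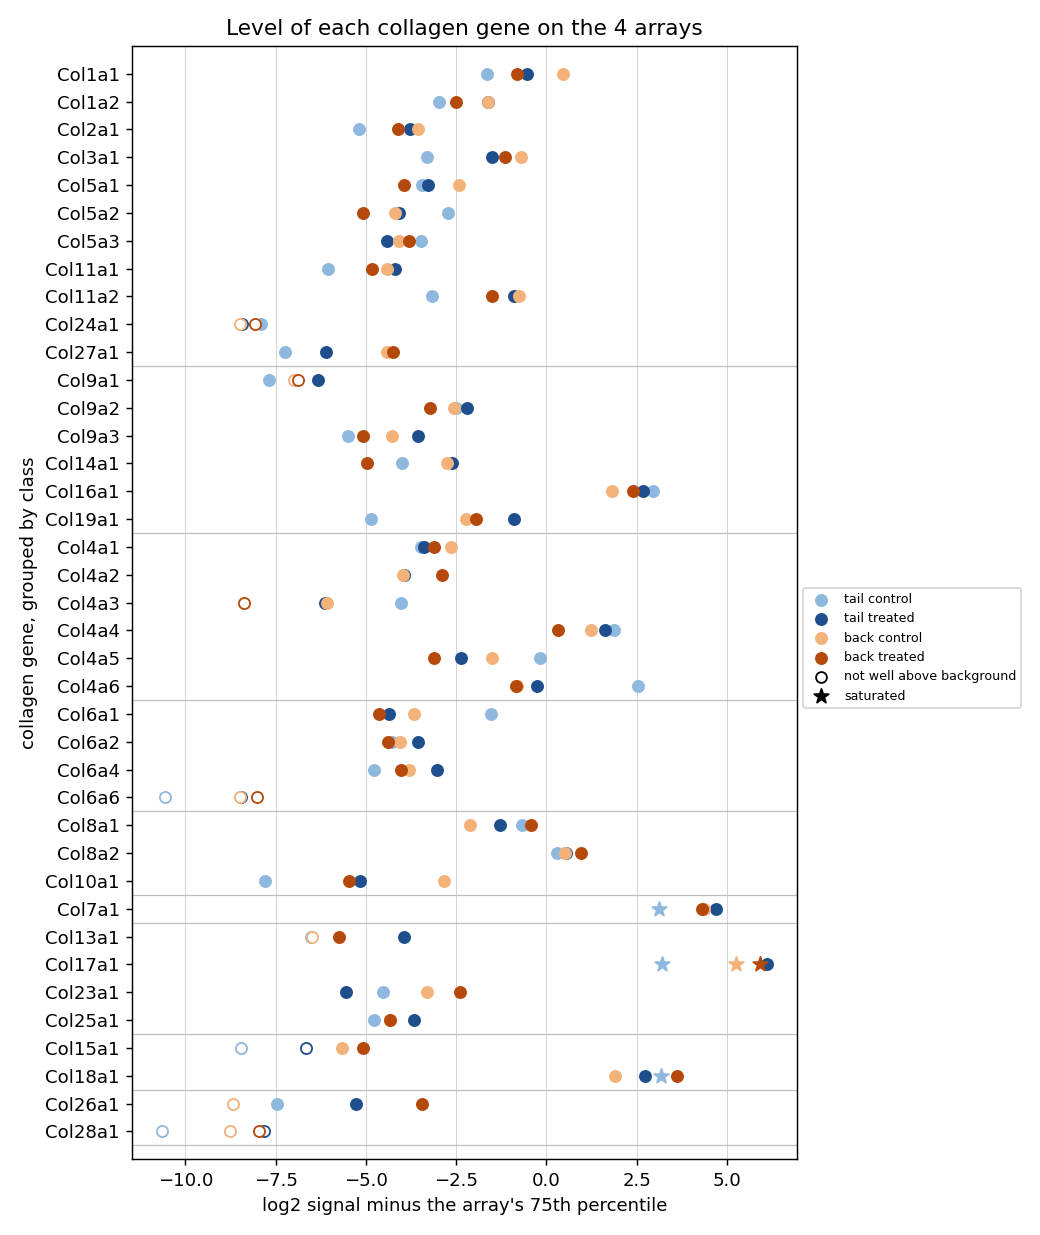
Level of each of the 39 collagen genes (rows, grouped by class) on the 4 arrays, as log2 signal minus the 75th percentile of the array. Each point is 1 array, open circles mark signals not well above background and stars mark saturated spots; Col6a6 and Col28a1 are open on every array, and Col17a1 is saturated on 3 of the 4.

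In tail skin the treated array had more of many interstitial collagen transcripts and less of several chains of epithelial basement membrane. Of the 33 collagens with a value, 16 were higher and 6 lower, and 6 had no value. Over all genes 27.2% were higher and 6.55% lower in this comparison, 33.7% in all, so both shares of the collagens (48.5% and 18.2%) lay above those of the array. The collagen median was 0.71 against 0.33 for all genes. Cyclic loess, a normalization that bends each array to the others along the range of brightness, left 11 collagens higher and 9 lower, beside 14.2% and 11.9% of all genes, with medians of 0.16 for collagens and -0.06 for all genes. Equalising the arrays on spike-in controls instead moved the median of all genes by -2.01, and 1 collagen was then higher and 20 lower, so the direction of any single tail difference is relative to the bulk of genes on the array.

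Of the fibrillar collagens, which assemble into the banded fibres of dermis and cartilage, 7 of 10 with a value were higher on the treated tail array and 1 was lower, with a median of 1.24. Cyclic loess gave 5 of 11 higher and 2 lower, with a median of 0.82. Col1a1, which encodes the major chain of type I collagen, had levels of -1.63 on tail control, -0.55 on tail treated, 0.47 on back control and -0.82 on back treated. The tail control array was thus the lowest of the 4 and the back control array the highest. The tail difference of Col1a1 was 1.09 ± 0.20 (spot error), or 2.12-fold, and a second measured probe gave 0.51. Col1a2, whose product joins that of Col1a1 in type I collagen, had levels of -2.98, -1.62, -1.62 and -2.51 on the arrays in the same order. Its tail difference was 1.36 ± 0.20, or 2.57-fold. Col3a1, the single chain of type III collagen, abundant in pliable and healing dermis, had levels of -3.30, -1.51, -0.70 and -1.15. Again the tail control array was the lowest and the back control array the highest. Col3a1 was 1.78 higher on treated tail, or 3.44-fold, and its other probe gave 1.15.

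The RefSeq promoter stretches of Col1a2 and Col3a1 are shown because these dermal chains were higher together in the treated tail. They are the 250 bases before the annotated start, on the plus strand of GRCm38.p6, at chr6:4505368-4505617 for Col1a2 and chr1:45311288-45311537 for Col3a1. Capitals mark matches on either strand to 4 motifs. The letters searched were TATAAA for the TATA box. They were CCAAT for the CCAAT box. The GC box was searched as GGGCGG. The AP-1 element was searched as TGANTCA.
Col1a2: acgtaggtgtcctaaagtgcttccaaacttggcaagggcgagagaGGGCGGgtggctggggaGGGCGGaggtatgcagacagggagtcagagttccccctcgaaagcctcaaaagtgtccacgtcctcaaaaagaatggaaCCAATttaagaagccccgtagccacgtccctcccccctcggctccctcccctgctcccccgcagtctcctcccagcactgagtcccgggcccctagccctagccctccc
Col3a1: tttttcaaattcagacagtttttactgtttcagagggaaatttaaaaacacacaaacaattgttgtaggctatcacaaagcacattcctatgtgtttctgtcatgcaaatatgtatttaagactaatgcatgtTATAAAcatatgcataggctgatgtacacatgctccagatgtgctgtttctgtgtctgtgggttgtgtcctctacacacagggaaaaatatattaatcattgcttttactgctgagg
The Col1a2 stretch holds 2 GC boxes and 1 CCAAT box, while that of Col3a1 holds 1 TATA box and none of the other motifs. Promoters were found for 32 of the 39 collagens, in 35 windows. GC boxes lay in 60.0% of these windows against 32.7% of the 32851 promoter windows of the table, CCAAT boxes in 37.1% against 33.8%, TATA boxes in 14.3% against 12.4% and AP-1 elements in 2.86% against 6.75%. A match of letters is a description and not a binding site.

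Col11a2, a chain of type XI collagen, had levels of -3.17, -0.91, -0.75 and -1.52 on the arrays ordered as for Col1a1. Its tail difference was 2.26, or 4.81-fold, with 1.74 from the other probe, and Col11a1 of the same type was 1.84 higher. These type XI chains, like Col2a1 of type II, are best known from cartilage. Col2a1 was 1.40 higher on the probe used, or 0.82 after cyclic loess, but a brighter probe, left out because its spot was marked as an outlier on the tail treated array, gave -0.29 when kept. Among the other fibrillar chains Col27a1 was 1.12 higher, or 0.16 after cyclic loess. Col5a2, which joins type V collagen inside type I fibrils, was the fibrillar chain lower on treated tail, at -1.35. Its partner Col5a1 differed by 0.18 and Col5a3 by -0.94. Col24a1 had no value, being dim on 3 of the 4 arrays.

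The FACIT collagens, which lie on the surface of fibrils, had a median difference of 1.37 in treated tail, where 4 of 6 were higher and none was lower. After cyclic loess that median was 0.62, with 2 higher and 1 lower. Col14a1, which regulates fibril diameter in dermis, had levels of -3.99, -2.61, -2.76 and -4.97 in the same order. The treated tail array and the back control array were close, and the back treated array was the lowest. Col14a1 was 1.38 higher in tail, or 0.96 after cyclic loess. Col9a3 was 1.95 higher and Col9a1, whose back values were dim, 1.36, of which 0.28 was left after cyclic loess. Col19a1 had the largest collagen difference in tail at 3.95, yet a second probe gave a bound at least 2.86-fold lower, so the probes of this gene disagree. Col16a1 and Col9a2 were within 2-fold, at -0.28 and 0.30, though Col16a1 was at -1.06 after cyclic loess.

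Basement membrane collagens went the other way. Of the 6 type IV chains, 3 were lower on the treated tail array and none was higher. Their median was -1.19, and -1.41 by cyclic loess, which kept 3 lower. With normexp background correction Col4a3 turned to 2.75 and Col4a5 was at -0.67, so Col4a6, at -2.73, was then the lower one of these 3. Type IV molecules are built from fixed sets of chains: Col4a1 and Col4a2 make the form found in nearly all basement membranes, Col4a3, Col4a4 and Col4a5 make a form best known from kidney, and Col4a5 with Col4a6 makes a form found under epidermis and around smooth muscle. Col4a6 had levels of 2.55 on tail control, -0.25 on tail treated, -0.82 on back control and -0.84 on back treated. On this brighter probe the tail control array stood above the other arrays, which lay close together. The other probe had levels of -1.02, -3.36, -2.82 and -4.66 in the same order. There tail control was again the highest, but the other arrays lay apart and back treated was the lowest. The tail difference of Col4a6 was -2.79 ± 0.20, a 6.93-fold lower value, with -2.34 from its other probe. Col4a5 had levels of -0.17, -2.38, -1.50 and -3.11 and was 4.61-fold lower in treated tail. Col4a3 had levels of -4.01, -6.14 and -6.08 on the first 3 arrays and was not well above background on back treated. It was 4.37-fold lower in treated tail, with the other probe at -1.59. The ubiquitous chains did not share this: Col4a1 differed by 0.08 on its brighter and 0.96 on its other probe, and Col4a2 by 0.01 and -0.13. Nor did Col4a4, of the same set as Col4a3 and Col4a5, which differed by -0.25.

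Col4a5 and Col4a6 are neighbours on the X chromosome that start on opposite strands, facing away from each other, and the stretches before their starts are shown because both were lower in the treated tail while the equally paired Col4a1 and Col4a2 stayed within 2-fold. Only bases outside annotated genes are given, 201 for Col4a5 on the plus strand of GRCm38.p6 at chrX:141475169-141475369 and 231 for Col4a6 on the minus strand at chrX:141474096-141474326, with capitals for the same motifs.
Col4a5: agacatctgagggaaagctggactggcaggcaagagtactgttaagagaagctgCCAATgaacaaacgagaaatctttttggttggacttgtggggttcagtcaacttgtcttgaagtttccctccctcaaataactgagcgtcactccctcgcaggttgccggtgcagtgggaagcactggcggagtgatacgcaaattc
Col4a6: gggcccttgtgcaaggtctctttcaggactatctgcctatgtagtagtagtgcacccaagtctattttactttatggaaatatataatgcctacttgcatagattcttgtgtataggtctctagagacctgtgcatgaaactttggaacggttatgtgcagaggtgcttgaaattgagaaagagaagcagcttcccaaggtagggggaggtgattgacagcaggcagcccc
The Col4a5 stretch holds 1 CCAAT box, and none of the 4 motifs was found in that of Col4a6. In all, 6 pairs of collagen genes on the array are neighbours with no other protein-coding gene between them. Members of a pair did not always go together in treated tail: Col4a3 was at -2.13 beside Col4a4 at -0.25, Col3a1 at 1.78 beside Col5a2 at -1.35, and Col6a1 and Col6a2 differed by -2.83 and 0.70.

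Type VI collagen forms beaded filaments around cells and near basement membranes. Col6a1 had levels of -1.52, -4.35, -3.67 and -4.63 in that same order of arrays, so the tail control array alone was high. Its tail difference of -2.83 ± 0.22, or 7.09-fold lower, turned to 0.45 with normexp background correction. Col6a2, whose product assembles with that of Col6a1, differed by only 0.70, and Col6a4 was 1.74 higher. Col6a6 was not well above background on any array.

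Several collagens of the border between epidermis and dermis were too bright on the tail control array to be measured. Col7a1 was saturated on the tail control array and had levels of 4.69 on tail treated, 4.35 on back control and 4.30 on back treated. Col17a1 was saturated on 3 arrays on its brighter probe, whereas the dimmer probe was saturated on tail control alone and gave at least a 2.51-fold lower value in treated tail. Col18a1, a basement membrane proteoglycan whose C-terminal fragment is endostatin, was at least 1.36-fold lower on its saturated probe and 3.53-fold lower on its second, measured probe. Col8a1, a short chain of vessel walls and wound tissue, differed by -0.63 on the brighter probe and by -1.96 on the other.

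Among the remaining collagens, Col10a1, a network collagen known from growth plate cartilage, was 2.63 higher in treated tail, on raw signals of only 32.9 on tail control and 25.6 on tail treated. Col26a1 was 2.20 higher and the transmembrane collagens Col13a1 and Col25a1 were 2.58 and 1.09 higher, or 1.28, 1.81 and 0.54 after cyclic loess. A second Col13a1 probe gave a bound at least 1.58-fold lower. The transmembrane collagen Col23a1 differed by -1.03. Col28a1 was not well above background on any array.

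Markers of other cell types moved on the same pair of tail arrays. Of the fibroblast markers 6 of 9 lay past 2-fold on the higher side and 1 on the lower, the median being 1.50. Their summed level was 8.73 on tail control and 14.9 on tail treated, in multiples of the 75th percentile of each array. Bright probes weigh most in such a sum, such as Fbln1, at levels of 0.52 and 2.66, and Thy1, at 2.11 and 0.73. After cyclic loess the fibroblast median was 1.05, above that of the fibrillar collagens at 0.82. Of the 8 basal keratinocyte markers, 5 were saturated on tail control. Endothelial markers were higher in 4 of 5 cases, adipocyte markers in 4 of 4 and skeletal muscle markers in 5 of 6. Over all genes 27.2% were higher and 6.55% lower. After cyclic loess these 3 lists had 4 of 5, 3 of 4 and 3 of 6 higher, beside 14.2% of all genes. In such bulk samples fewer cells of a type and less RNA per cell cannot be told apart, and the part of these markers in the collagen differences was not tested. Of 12 cartilage, bone and tendon markers, Matn1, Hapln1, Cnmd, Ibsp and Tnmd were not well above background on any array. In treated tail 4 of 6 with a value were higher, Runx2 at 2.50, Chad at 2.30, Acan at 1.70 and Comp at 1.32. Bglap at 0.51 and Scx at -0.37 were within 2-fold. After cyclic loess 3 of 6 were higher, with a median of 0.79.

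**Figure D2:**
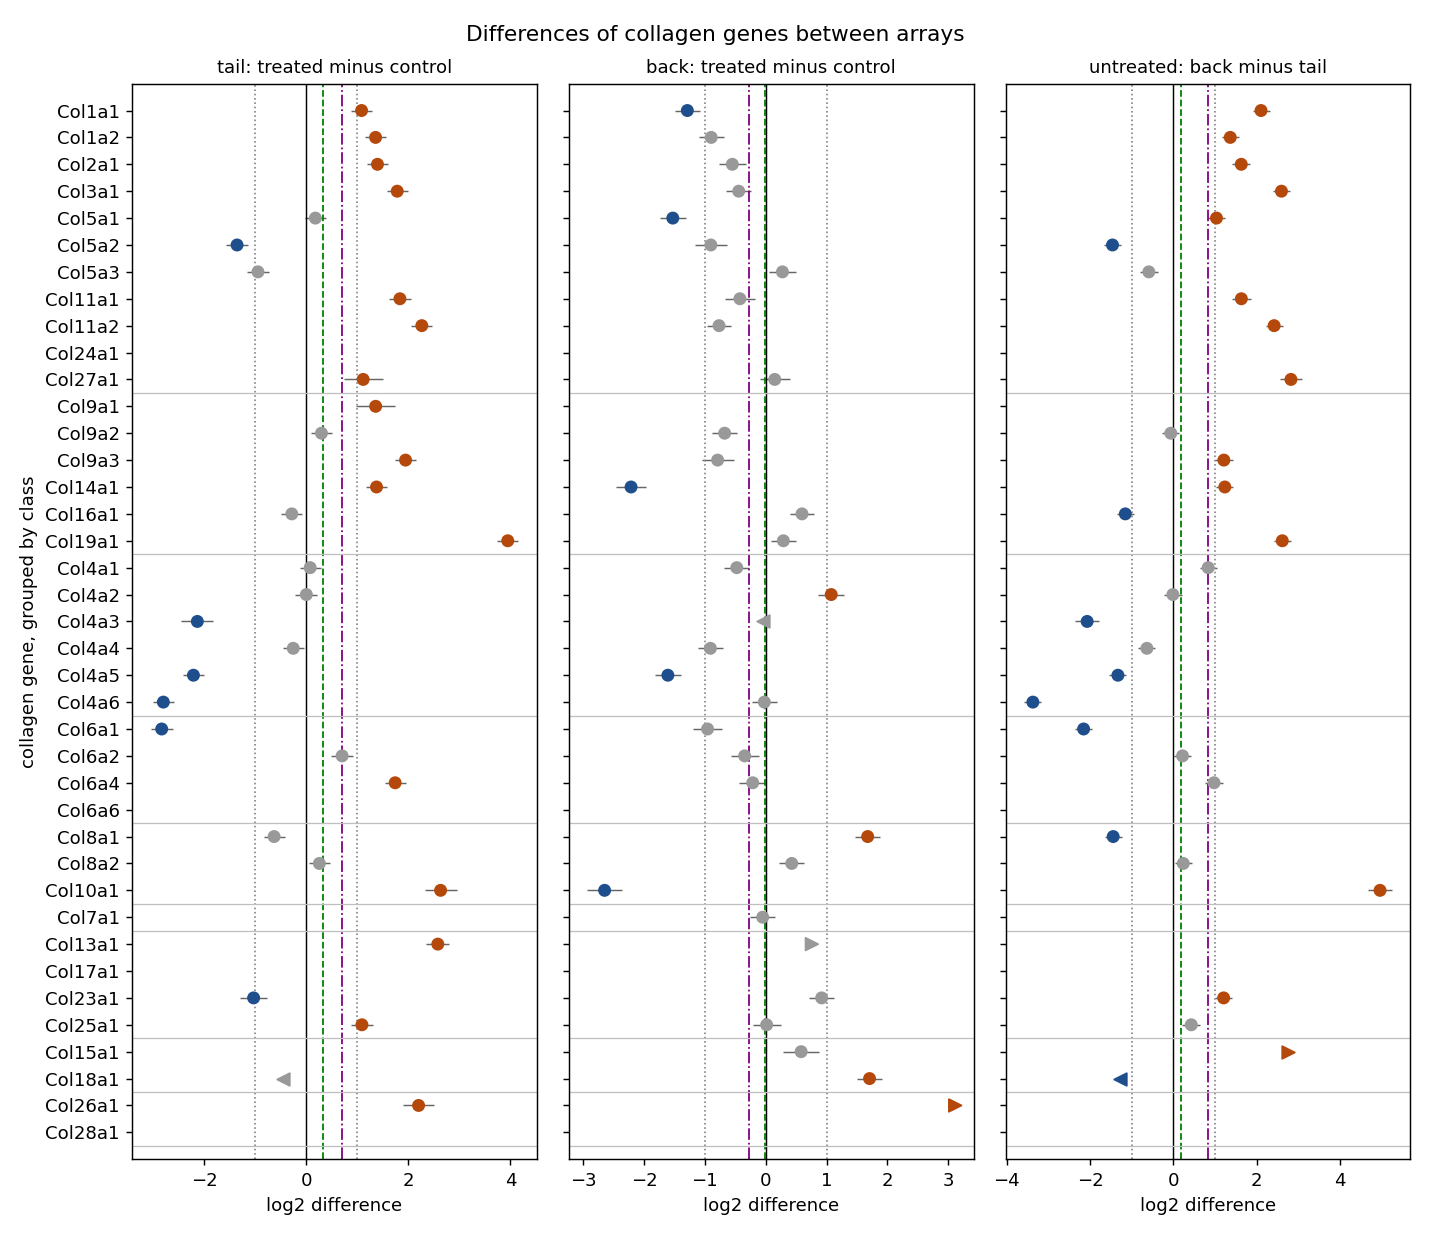
Differences in log2 level of the 39 collagen genes in the 3 comparisons (panels). Circles are measured differences with the spot error as a bar, triangles are bounds pointing in the direction of the bound, orange and blue mark values past 2-fold (dotted lines), the green dashed line is the median of all genes and the purple dash-dotted line that of the collagens; in the tail panel 7 of 10 fibrillar genes lie past 2-fold on the higher side and 3 of 6 basement membrane genes on the lower side.

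In back skin fewer collagens differed. Of the 34 with a value, 4 were higher and 5 lower on the treated array, and 5 had no value. Over all genes 13.6% were higher and 12.6% lower, 26.2% in all, and the collagens, at 11.8% and 14.7%, lay near both shares. The collagen median was -0.28 against -0.01 for all genes. After cyclic loess the collagen median was -0.24, with 4 higher and 6 lower, and spike-in scaling, which moved the median of all genes by -0.49, gave 3 higher and 13 lower.

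Of the 4 collagens higher on the treated back array, Col4a2, Col8a1 and Col18a1 belong to basement membranes and vessel walls. Col18a1 had levels of 1.90 on back control and 3.61 on back treated and was 3.26-fold higher, with 1.06 on its second probe. Col8a1 had levels of -2.10 and -0.43 and was 3.20-fold higher, with 1.27 on its second probe. Both probes of each gene thus lay past 2-fold in the same direction. Col4a2 was 1.08 higher, with 0.70 from the other probe, whereas its partner Col4a1 differed by -0.47 and -0.16 on its probes. Col26a1 was not well above background on back control and at least 8.66-fold higher on back treated. The dimmer Col17a1 probe differed by 0.93, Col7a1 by -0.05 and Col16a1 by 0.60, all within 2-fold.

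Fibrillar collagens had a median of -0.66 on the treated back array, against -0.01 for all genes. Of 10 with a value 2 were lower and none higher, beside 12.6% lower and 13.6% higher over all genes. Col1a1 differed by -1.29 ± 0.20, or 2.44-fold lower, with -1.20 from its second measured probe. Col1a2 differed by -0.89 and Col3a1 by -0.44, short of 2-fold. Col5a1 differed by -1.52 on the brighter probe but by 0.76 on the other, so its direction in back is not settled. Col11a2 likewise differed by -0.77 on the brighter probe but by 0.59 on the other. The FACIT gene Col14a1 was 4.63-fold lower, at -2.21, and its second probe was not well above background on any array. Col10a1 had levels of -2.83 on back control and -5.47 on back treated, a 6.26-fold lower value read by 1 probe. The basement membrane chain Col4a5 was 3.04-fold lower, and by the probes used it was the single collagen lower in both skins. Col4a6 differed by -0.02 in back on its brighter probe but by -1.84 on the other, which was past 2-fold lower in tail too. The probes of Col4a6 thus disagree in back. Of the cartilage, bone and tendon markers in back, 1 of 6 with a value was lower, the bone gene Bglap at -2.59, and the median was 0.03. The part of these markers in the Col10a1 value was not tested.

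Fibroblast markers were not lower beside the fibrillar chains in back. Of 9 with a value 5 were past 2-fold on the higher side and none on the lower, the median being 1.24. Their summed level was 16.3 on back control and 34.0 on back treated. Bright probes weigh most in this sum, above all Fbln1, at levels of 2.27 on back control and 4.27 on back treated. Basal keratinocyte markers were 2-fold higher or more in 4 of 5 cases (median 1.78), and so were 3 of 5 macrophage markers. These counts stand beside 13.6% higher and 12.6% lower over all genes. The part of these markers in the collagen values was not tested.

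**Figure D3:**
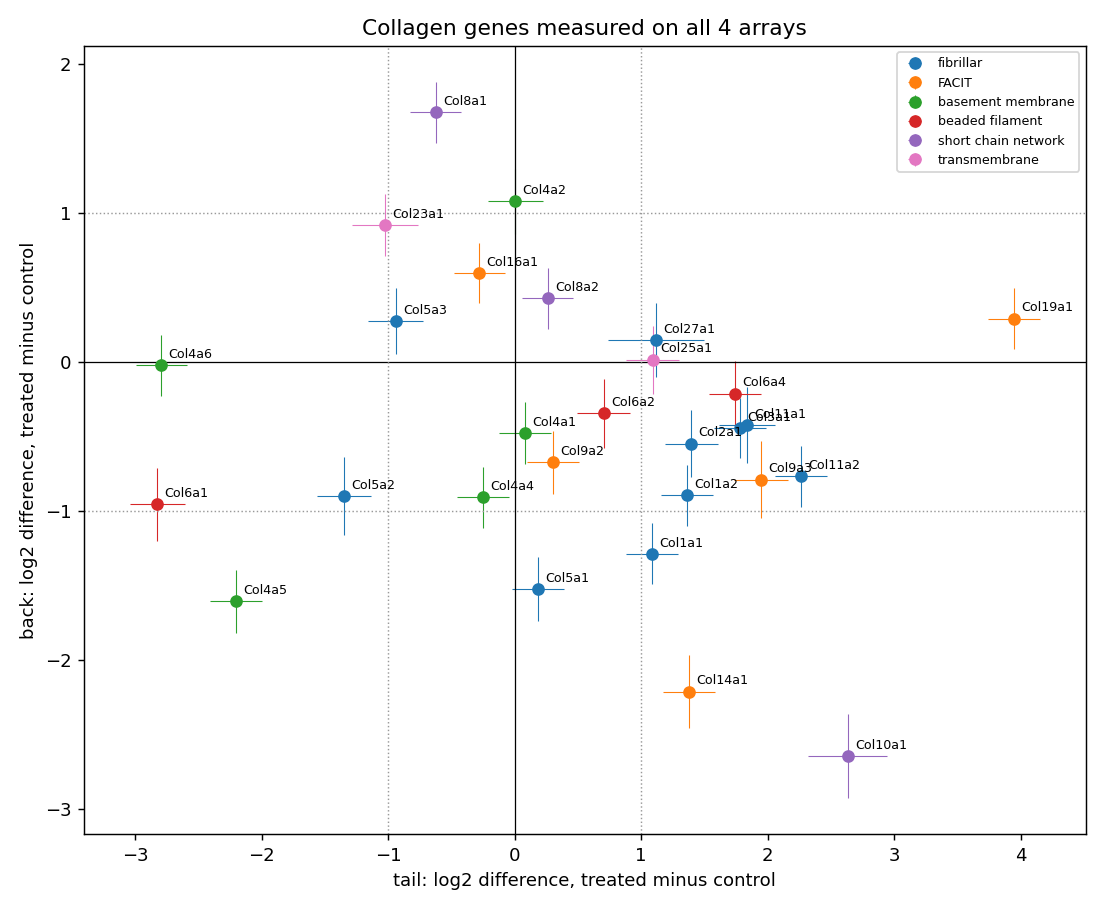
Treated minus control in tail (x axis) against back (y axis), as log2 differences, for the 28 collagen genes measured on all 4 arrays, coloured by class; bars are spot errors and dotted lines mark 2-fold. Col1a1, Col10a1 and Col14a1 lie past 2-fold on the higher side in tail and the lower side in back, Col4a5 past 2-fold on the lower side in both.

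The tail and back comparisons share no array, and their collagen values are set side by side here. Of the 28 collagens measured on all 4 arrays, the back difference was below the tail difference in 18 (64.3%), against 56.5% of the 11281 genes measured on all arrays. The median of the back minus the tail difference was -1.01 for collagens and -0.20 for all genes. Col1a1, Col10a1 and Col14a1 were higher in tail and lower in back. A further 11 collagens were higher in tail and within 2-fold in back, among them Col1a2, Col3a1, Col11a1 and Col11a2. Col26a1 was higher in both skins. Col4a2, Col8a1 and Col18a1 were higher in back and not called in tail, where the second probes of Col8a1 and Col18a1 were at -1.96 and -1.82. No collagen was lower in tail and higher in back by the probes used.

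The untreated skins were set against each other to give the starting levels. This comparison shares its arrays with both others, so its values are not independent of them. On back control 14 of 31 collagens with a value were higher than on tail control and 8 were lower, beside 27.4% and 17.2% of all genes, 44.6% together. The collagen median was 0.84 and that of all genes 0.19; after cyclic loess these medians were 0.43 and -0.10, and 12 collagens were higher and 9 lower. Fibrillar chains were higher on back control in 8 of 10 cases, with Col1a1 at 2.10, Col3a1 at 2.59, Col11a2 at 2.42 and Col27a1 at 2.82. Their other measured probes gave 1.75, 1.67, 0.62 and 0.19 in the same order, so those of Col11a2 and Col27a1 were within 2-fold. Col5a1 was at 1.03 on the probe used and at 0.0065 on its other probe. Col10a1 was 4.96 higher, or 31.0-fold, on the same faint tail control signal of 32.9. Col15a1, a collagen of vessel and muscle basement membrane zones, was not well above background on the tail control array and at least 6.72-fold higher on back control.

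The 8 collagens lower on untreated back than on untreated tail came from several classes. Of the type IV and type VI chains, Col4a6 was 10.3-fold lower, Col6a1 4.44-fold, Col4a3 4.19-fold and Col4a5 2.51-fold. The fibrillar Col5a2 was 2.75-fold lower, Col8a1 2.72-fold and Col16a1 2.22-fold, and Col18a1 at least 2.43-fold lower. Over the 28 collagens measured on all 4 arrays, the tail control array held the lowest level in 14 and the highest in 7 (25.0%), against 33.4% and 16.4% of the 11281 genes measured on all arrays. It was the lowest for 7 of the 10 fibrillar chains and the highest for Col4a4, Col4a5 and Col4a6 among the 5 type IV chains measured on all arrays. After cyclic loess the tail control array was the lowest for 13 of the 28 and the highest for 7, beside 2844 and 2896 of the 11281 genes. The fibrillar and type IV differences of the tail therefore rest on 1 array that stood apart in brightness, and no second tail control array is there to set beside it.

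Genes that act on collagen were described from lists of the pathway. Of the genes for folding and modifying collagen chains in the endoplasmic reticulum, 8 of 18 with a value were higher and 2 lower on the treated back array, with a median of 0.70. Over all genes 13.6% were higher and 12.6% lower there. The prolyl hydroxylase subunits P4ha2 and P4ha1, which make the hydroxyproline that stabilises the helix, were 2.01 and 1.22 higher. The lysyl hydroxylases Plod2, Plod1 and Plod3, which prepare chains for crosslinks, were 2.16, 1.51 and 1.32 higher. The collagen chaperone Serpinh1 was 1.19 and the prolyl hydroxylase P3h1 1.20 higher, while P3h3 and the foldase Fkbp10 were at -1.70 and -1.66. On the treated tail array 1 of 13 was higher, Plod2 at 1.43, and 3 were lower, P4ha1 at -2.12, P3h2 at -1.39 and P3h1 at -1.28. The median there was -0.35, beside shares of 27.2% higher and 6.55% lower over all genes. After cyclic loess 1 of 14 was higher and 6 were lower, beside 14.2% and 11.9% of all genes.

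Of the genes that trim and crosslink collagen outside the cell, 4 of 7 with a value were higher and 1 was lower on treated tail, beside 27.2% and 6.55% of all genes. The higher ones were the procollagen peptidases Adamts14 at 2.10 and Adamts2 at 1.36, the peptidase enhancer Pcolce at 1.64 and the lysyl oxidase Loxl1 at 1.25. The matricellular collagen-binding protein Sparc was at least 2.55-fold lower, being saturated on tail control. Bmp1 and Pcolce2 were at -0.68 and 0.35. After cyclic loess 2 of 8 were higher and 1 lower. On treated back none of 6 differed by 2-fold, and the difference between the skins was not tested. Lox, Loxl2, Loxl3 and Loxl4 had no value in either skin.

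Among collagen receptors, 2 of 6 with a value were higher and 2 lower in treated tail. Over all genes 27.2% were higher and 6.55% lower in treated tail, and 13.6% and 12.6% in treated back. The integrin subunits Itga1 and Itga11 were 3.78 and 1.93 higher, while Itgb1, the beta subunit with which they pair, was at -2.32 and the collagen uptake receptor Mrc2 at -1.13. In treated back 2 of 5 were higher and none lower, the integrin subunit Itga2 at 2.60 and Itgb1 at 1.87. Of the collagen-degrading enzymes, 7 of 8 were higher in treated back and 1 lower, with a median of 2.45. The neutrophil collagenase Mmp8 was at least 23.9-fold higher. The collagenases Mmp1a and Mmp13 were at 4.51 and 3.81, the stromelysin Mmp3 at 3.34 and the gelatinase Mmp9 at 1.56. The membrane-bound Mmp14 and the cathepsin Ctsk were each at 1.33, and the gelatinase Mmp2 was at -1.01. In treated tail 2 of 6 with a value were lower, Mmp13 at least 95.2-fold and Mmp3 20.3-fold, and 1 was higher, Mmp9 at 1.02. After cyclic loess 3 of 7 were lower there and none was higher.

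**Figure D4:**
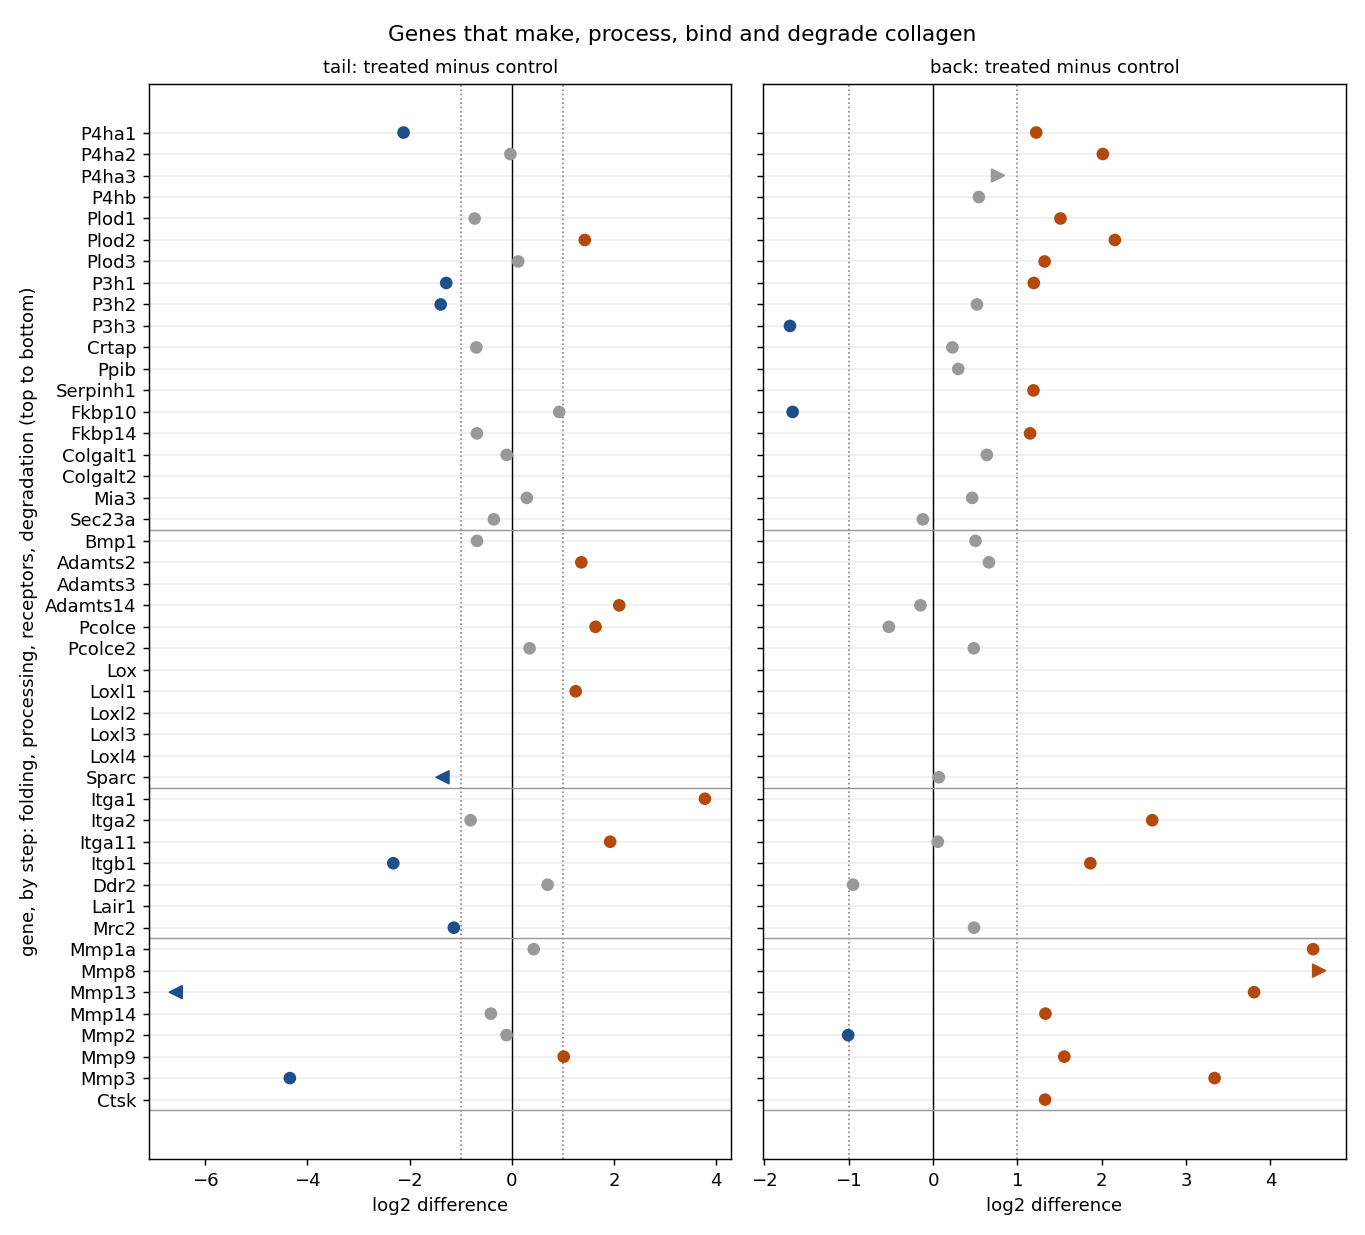
Treated minus control in tail (left) and back (right) as log2 differences for genes that fold and modify, process, bind and degrade collagen, top to bottom, separated by grey lines. Orange and blue mark values past 2-fold and triangles bounds. In back 8 of 18 folding genes and 7 of 8 degrading enzymes lie past 2-fold on the higher side, beside 13.6% of all genes.

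**Figure D5:**
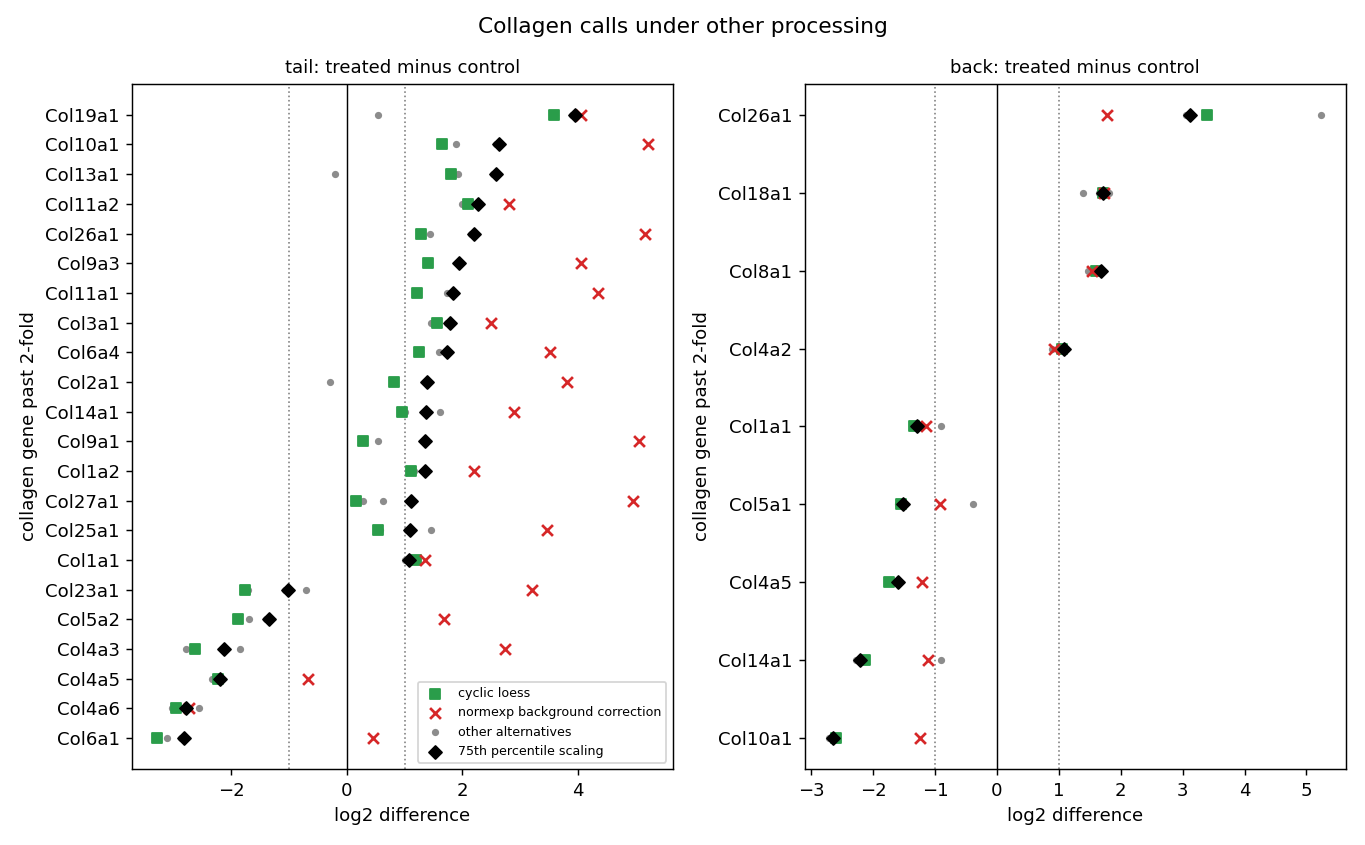
Log2 differences of the 22 collagens past 2-fold in tail (left) and the 9 in back (right) under 75th percentile scaling (black), cyclic loess (green), normexp background correction (red) and the other alternatives (grey). With normexp the tail values of Col4a3, Col5a2, Col6a1 and Col23a1 lie above 0, at 2.75, 1.69, 0.45 and 3.21.

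How far a call held was counted for each collagen over the alternatives that gave it a value. In tail 10 of 22 calls were past 2-fold in the same direction in every such alternative other than spike-in scaling: Col1a1, Col1a2, Col3a1, Col6a4, Col9a3, Col10a1, Col11a1, Col11a2 and Col26a1 as higher and Col4a6 as lower. In back 5 of 9 did so, Col8a1, Col18a1 and Col26a1 as higher and Col4a5 and Col10a1 as lower. Between the untreated skins 15 of 22 did so. These counts do not weigh higher and lower calls evenly in tail, because normexp lifts dim genes of the treated tail array by construction. Col4a3, Col4a5, Col5a2 and Col6a1 lost their call as lower under normexp alone. Measured genes only, no filter and a signal of at least 200 return the same value for a measured probe, so they cannot lose its call. The deposited table and median centring mostly shift all genes alike, and moved the tail median of all genes by only -0.02 and -0.04. These 2 could hardly lose a call that was not close to 2-fold. Of the called collagens with a second measured probe, the other probes had the same sign in 7 of 7 cases in tail, 4 of 5 in back and 10 of 11 between the untreated skins. This count takes a same sign of any size. The other Col27a1 probe was at only 0.12 in tail and 0.19 between the untreated skins, and that of Col5a1 at 0.0065 between the untreated skins. Others were past 2-fold, such as those of Col3a1 at 1.15 and Col11a2 at 1.74 in tail. The count also leaves out probes known only as a bound or marked as an outlier. In tail, such probes of Col19a1 and Col13a1 were at least 2.86-fold and 1.58-fold lower, and that of Col2a1 gave -0.29 when kept, all against the call.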

How the data were processed

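Total RNA of 200 ng per sample was labelled with Cy3 and hybridised to 4 one-colour Agilent arrays, per the labels' protocols. Sample titles gave the groups. The intensity used is Agilent's processed signal of each spot, which per the file headers was background-corrected in Feature Extraction 10.5.1.1 and not normalized between arrays; version 10.7 stands in the submitters' processing notes. The deposited table of the authors' values is on a log2 scale and centred probe by probe on the median; how it was made is not stated. Its column medians were -0.28 and 0.10 for untreated and treated tail and -0.03 and 0.08 for untreated and treated back. Its differences matched those of the log2 processed signal plus a constant within 0.001 for 99.94% to 99.97% of 40634 probes, which settles its scale and direction.

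Levels were log2 of the processed signal minus the 75th percentile over the non-control probes of the array. Outlier spots were left out, repeated spots averaged, and saturated spots kept. Accessions named 24375 of 41171 probes (59.2%) through RefSeq, and the probe with the highest mean level stood for its gene. The file headers name build mm8, so array positions are not given; printed promoters carry their own build. For a bound, a dim level was raised where needed to that array's lowest level well above background, and a saturated level was used as it stood. A value against the direction of its bound, or dim or saturated on both arrays, was dropped. No p-value is given with 1 array per group, and the number of arrays limits the precision. Members and lists were chosen with earlier results of these data known. Named genes were collagens past 2-fold with other measured probes of the same sign, the best known chains of skin, and up to 4 members of each other list by size plus bounds; names outside this complete a class, pair or count and were picked with their values known. In each of the 3 comparisons simulated on 16862 genes, at least 98% of genes given a known log2 difference of 1.5 or -1.5 were called, as were 100% of those given 2.5 or -2.5. The genes changed were of middle brightness, neither dim nor saturated, and the spot error was the only noise. Many collagens on tail control were dimmer than that range. Shifts between arrays along the range of brightness were not simulated, so these shares do not apply to such calls. Alternatives were normexp with an offset of 50, quantile normalization, cyclic loess (limma 3.58.1 in R 4.3.3), median centring, no filter, a signal of at least 200, measured genes only, averaging all probes of a gene, keeping outlier spots, the deposited table, and, for counts and medians, spike-in scaling on 6 probes.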

Additional observations from a re-analysis of the deposited data

Results flagged for a closer look

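Collagens past 2-fold in opposite directions in tail and back were singled out. The difference between the skins was not tested, since each value comes from 1 array per group. Col1a1 was at 1.09 in tail and -1.29 in back. Col10a1 was at 2.63 in tail and -2.65 in back. Col14a1 was at 1.38 in tail and -2.21 in back. On the control arrays these genes were also 2.10, 4.96 and 1.23 higher in back than in tail.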

How the results depend on the processing

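In tail, the counts of 16 higher and 6 lower collagens and the median of 0.71 became, with normexp, 24, 2 and 2.63, with a signal of at least 200, 5, 1 and 0.26, and with spike-in scaling 1, 20 and -1.04. The tail median was also 0.24 with quantile normalization, 0.16 with cyclic loess, 1.09 with no filter and 0.29 with outlier spots kept. In back, the counts of 4 and 5 and the median of -0.28 became 2, 1 and -0.035 with a signal of at least 200. Spike-in scaling gave 13 lower and a median of -0.79 there, and the mean of a gene's probes 2 lower. The back median was 0.0325 with normexp and -0.0485 with no filter. Between the untreated skins, 14 and 8 with a median of 0.84 became 7, 5 and 0.54 with a signal of at least 200 and 7, 13 and -0.23 with spike-in scaling. That median was 0.40 with quantile normalization, 0.43 with cyclic loess, 0.38 with the mean of probes and 0.42 with outlier spots kept.

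Single tail calls that changed sign were, with normexp, Col4a3 at 2.75, Col5a2 at 1.69, Col6a1 at 0.45 and Col23a1 at 3.21, with the mean of probes Col13a1 at -0.20, and with outlier spots kept Col2a1 at -0.29. Between the untreated skins Col19a1 was at -0.69 with the mean of probes and Col2a1 at -0.47 with outlier spots kept. Normexp adds the same offset of 50 to arrays whose 75th percentiles were 7261 and 909, which lifts dim genes of the treated tail array by construction; the cause of the other changes was not tested. Of all single-gene values recomputed, 725 moved by no more than their spot error, 178 by more, and 8 changed sign after a call. The share of higher calls over all genes in tail was 80.6%, and 54.4%, 57.8%, 91.5% and 1.18% with cyclic loess, quantile normalization, normexp and spike-in scaling. In back it was 51.8%, and 18.3% with spike-in scaling, and between untreated skins 61.4%, and 48.8%, 47.3% and 16.3% with cyclic loess, quantile normalization and spike-in scaling. No paired analysis was possible because each group has 1 array. Leaving out a replicate was likewise not possible.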
